A study of Rattus norvegicus with 4 samples.

Results

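The endothelin genes are described here in surface colonocytes, the absorptive cells that line the lumen of the rat distal colon. The rule took every row of the deposited array values that carried a single gene symbol from a set of 7. These were the peptide genes Edn1, Edn2 and Edn3, the receptor genes Ednra and Ednrb, and the converting enzyme genes Ece1 and Ece2. It found 5 rows of 19403, which were 7163221 for Edn1, 7279089 for Edn2, 7236044 for Edn3, 7280817 for Ece1 and 7095047 for Ece2. In the GRCr8 assembly of RefSeq Edn1 spans chr17:22660799-22666687, Edn2 chr5:139036576-139042074, Edn3 chr3:183980458-184004958, Ece1 chr5:155361031-155462723 and Ece2 chr11:93767559-93782896. The receptors Ednra and Ednrb carried no row by this rule and were not analysed here, so the results concern the ligands and the enzymes that activate them.

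RNA came from 4 adrenalectomized Wistar rats aged 12 weeks, each on 1 Affymetrix exon array, and the labels name the 2 rats of a group as biological replicates. The 2 aldosterone rats had 50 µg of the hormone injected per 100 g body weight and, from an implanted minipump, 10 µg/kg per hour, and their colons were then shaken for 40 min in 100 nM of the hormone to release the cells. The 2 vehicle rats had injection, minipump and shaking without the hormone. Treatment lasted 2 h in the animal. All 4 rats had lost both adrenal glands, the body's main source of aldosterone and corticosterone, 4 days before and drank 0.9% NaCl, so the vehicle rats stand for a state without adrenal hormones rather than for intact animals. Values are log2 expression as deposited, 1 per row and array. The 19403 rows had a median of 2.33 and 2.44 in the aldosterone rats, against 2.22 and 2.43 in the vehicle rats, and 65.0% of rows had a mean below 3, near the floor of the array.

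Endothelins are short peptides cut from long precursors, first by furin-type proteases into an inactive big endothelin and then by the membrane metalloproteases Ece1 and Ece2 into the active form. They act on 2 G protein-coupled receptors, ETA and ETB, known for the contraction of vessels and gut muscle, and in the intestine also for the control of epithelial ion secretion and, through endothelin-3 and ETB, for the development of the enteric nervous system. In the collecting duct of the kidney aldosterone is known to raise Edn1 in rats and mice, and the peptide, acting through ETB and nitric oxide, restrains the epithelial sodium channel. The distal colon carries the same aldosterone-regulated channel, which gives the question addressed here: whether Edn1 or its partners differ between aldosterone and vehicle rats in this target tissue too.

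The sequences before the start of the Edn1 and Edn2 genes are shown because these were the rows whose values did not overlap between the groups. Both come from the RefSeq promoter table for the GRCr8 rat assembly and run 5′ to 3′ on the strand of the gene, from 250 to 101 bases before the annotated start. The Edn1 stretch is chr17:22666788-22666937 on the minus strand and the Edn2 stretch chr5:139036326-139036475 on the plus strand. Capitals mark matches, on either strand, to the motifs named below.
Edn1: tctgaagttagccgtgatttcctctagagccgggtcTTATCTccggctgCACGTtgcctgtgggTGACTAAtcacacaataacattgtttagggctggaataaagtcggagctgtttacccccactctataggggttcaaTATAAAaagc
Edn2: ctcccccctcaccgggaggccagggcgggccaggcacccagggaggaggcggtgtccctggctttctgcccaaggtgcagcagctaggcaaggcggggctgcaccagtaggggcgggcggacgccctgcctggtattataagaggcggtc

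The motifs were searched on both strands over the 250 bases before the annotated start, with their letters chosen after the Edn1 sequence had been seen. Promoters were listed for 6 of the 7 genes, Edn3 being the gene without an entry. The Edn1 window held a GATA motif (AGATAA, read as TTATCT on this strand) from 214 to 209 bases before the start, and 10.3% of 33469 promoters held that motif. It held the hypoxia response core ACGTG (read as CACGT) from 201 to 197 bases before the start, a motif found in 16.6% of promoters. It held TGACTAA, a heptamer like the binding site of AP-1, from 186 to 180 bases before the start, a motif found in 1.99% of promoters, and TATAAA from 110 to 105 bases before the start, found in 12.9%. These 4 matches did not overlap each other. GATA factors, AP-1 and hypoxia-inducible factor are known to act on the human gene near its start. Neither the AP-1 consensus TGANTCA (6.34% of promoters) nor AGAACA, the hexamer that corticosteroid receptors bind (17.5%), matched within the window of Edn1, and none of the 6 motifs matched within that of Edn2. A match is a stretch of letters, and binding was not measured.

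Edn1, the gene of endothelin-1, was expressed far above the array floor and lay lower in both aldosterone rats than in either vehicle rat. Its log2 values were 9.75 and 8.86 in the aldosterone rats, against 10.16 and 10.10 in the vehicle rats. The vehicle rats were nearly alike, whereas the aldosterone rats were 0.89 apart, a gap reached by 9.30% of rows averaging 4 or more. The difference, aldosterone minus vehicle, was -0.82 ± 0.33 (SE) on the log2 scale, a 1.77-fold lower mean. The 95% interval in limma with a constant prior ran from -1.72 to 0.076, so that its upper end was a 1.05-fold higher level with aldosterone. The difference did not pass the threshold, an adjusted p of 0.05 over all rows (unadjusted p = 0.0641, adjusted p = 1.00 in limma). With an intensity trend, in which the prior spread depends on the expression level, the interval was -1.45 to -0.19 (unadjusted p = 0.0146, adjusted p = 0.811 in limma). The size rested on aldosterone replicate 2: the difference was -0.38 without it and -1.27 without aldosterone replicate 1. A difference as low as that of Edn1 was found in 2.76% of rows averaging 4 or more.

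**Figure D1:**
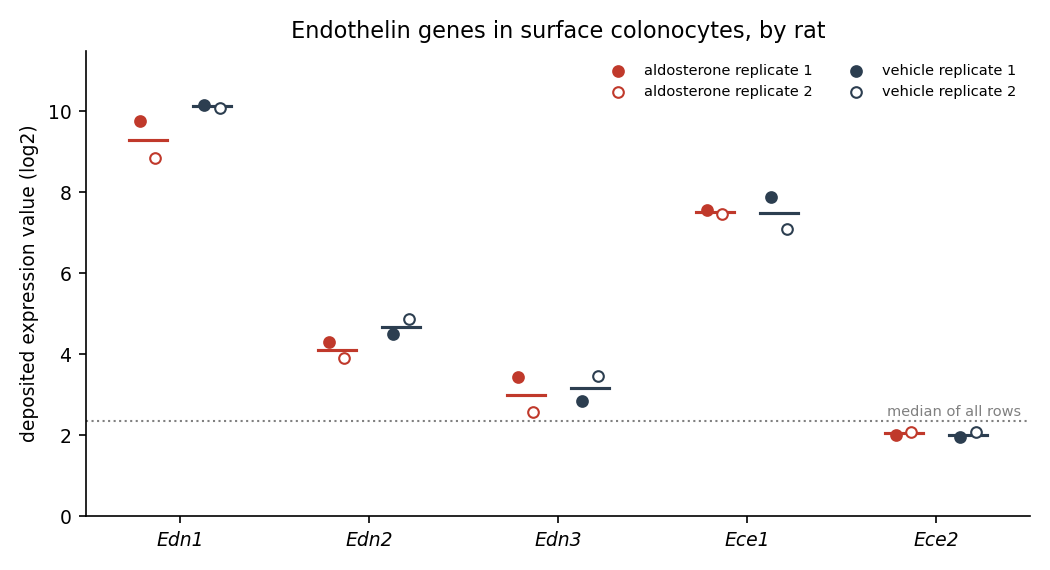
Deposited log2 values (y axis) of the 5 endothelin rows (x axis) in each rat. Filled circles are replicate 1 and open circles replicate 2, red for aldosterone and dark blue for vehicle rats, short lines are group means and the dotted line is the median of all row means, 2.35. For Edn1 and Edn2 both aldosterone rats lie below both vehicle rats, while the groups overlap for Edn3, Ece1 and Ece2.

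Edn2, the gene of endothelin-2, a peptide of the intestinal epithelium in mice, showed the same order of groups at values between 3.90 and 4.87, above the median of all rows. Its log2 values were 4.29 and 3.90 in the aldosterone rats, against 4.50 and 4.87 in the vehicle rats. The difference of -0.59 ± 0.21 (SE) was a 1.51-fold lower mean, with an interval of -1.17 to -0.013. It did not pass the threshold (unadjusted p = 0.0468, adjusted p = 1.00 in limma). The interval took in 0 with the intensity trend, at -1.25 to 0.068. It was -0.39 without aldosterone replicate 2, -0.79 without aldosterone replicate 1, and -0.77 and -0.41 without vehicle replicates 1 and 2.

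Edn3, the gene of endothelin-3, the ligand of ETB in enteric nervous system development, lay at 3.44 and 2.57 in aldosterone rats, against 2.85 and 3.47 in the vehicle rats. The groups overlapped, and in each group 1 rat stood near the median of all rows. The difference of -0.16 had an interval of -1.21 to 0.90, wide enough to hold a 1.87-fold higher level with aldosterone. Its sign changed with the rats included, at 0.28 without aldosterone replicate 2 and 0.15 without vehicle replicate 2.

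Of the converting enzymes, Ece1 was well expressed. Its log2 values were 7.56 and 7.47 in the aldosterone rats, against 7.89 and 7.09 in the vehicle rats. The vehicle rats stood on either side of the aldosterone rats and were 0.80 apart. The difference of 0.025 had an interval of -0.79 to 0.84, so that neither a 1.79-fold higher nor a 0.577-fold level was outside it. It became -0.38 when vehicle replicate 2 was left out, 0.43 without vehicle replicate 1, -0.023 when aldosterone replicate 1 was left out, and -0.033 with median-centred arrays. Ece2, an enzyme of neural and endocrine tissue, lay at 2.01 and 2.09 in aldosterone rats, against 1.95 and 2.08 in the vehicle rats, below the median of all row means. All 4 values of Ece2 lay at the array floor, so that its difference of 0.035 says little about the transcript.

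**Figure D2:**
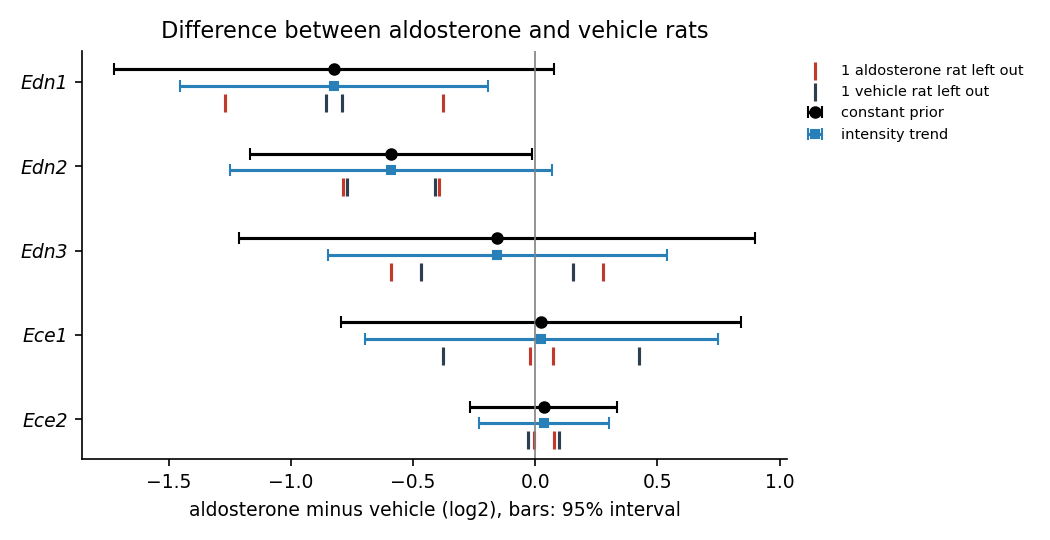
Difference of each endothelin row, aldosterone minus vehicle, on the log2 scale (x axis). Black circles with bars are the estimate and 95% interval with a constant prior, blue squares those with the intensity trend, and ticks the difference with 1 rat left out. Each tick of Edn1 and Edn2 lies below 0, as it must where the groups do not overlap. The ticks of Edn3, Ece1 and Ece2 lie on both sides of 0.

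Against all rows, the endothelin counts are small. Rows with non-overlapping groups and lower values in aldosterone rats made up 2 of the 5 endothelin rows and 11.1% of all rows. Of the 3 endothelin rows with a mean of 4 or more, Edn1, Edn2 and Ece1, they made up 2. Among all 4815 rows with such a mean the share was 18.7%. None of the 5 had non-overlapping groups in the higher direction (16.7% of all rows), and groups did not overlap in either direction in 2 of 5, against 27.8% of all rows. At an unadjusted p under 0.05 in limma, 1 of the 5 was lower (Edn2; 2.34% of all rows) and 0 were higher (2.19%). With the intensity trend 1 was lower (Edn1; 2.11%) and 0 were higher (2.56%). The row that passed was thus not the same in these fits. None of the 5 passed the adjusted threshold, which 0 of 19403 rows (0%) passed with the constant prior, where 879 (4.53%) had an unadjusted p under 0.05, and which 21 (0.108%) passed with the intensity trend. The median difference was -0.16 over the 5 endothelin rows and 0.024 over all rows. The same arrays carried large differences for genes that aldosterone is known to induce. The kinase gene Sgk1 was 1.95 higher, at 12.54 and 12.52 in aldosterone rats, against 10.51 and 10.65 in the vehicle rats, and Tsc22d3, which encodes GILZ, was 2.35 higher. Scnn1g, the gamma subunit gene of the sodium channel, lay at 6.65 and 7.61 in aldosterone rats, against 2.05 and 2.03 in the vehicle rats. With the intensity trend these 3 genes passed in limma (adjusted p = 0.000558, 0.00258 and 6.95e-05 in that order), and with the constant prior they did not (adjusted p = 0.332, 0.332 and 0.402).

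**Figure D3:**
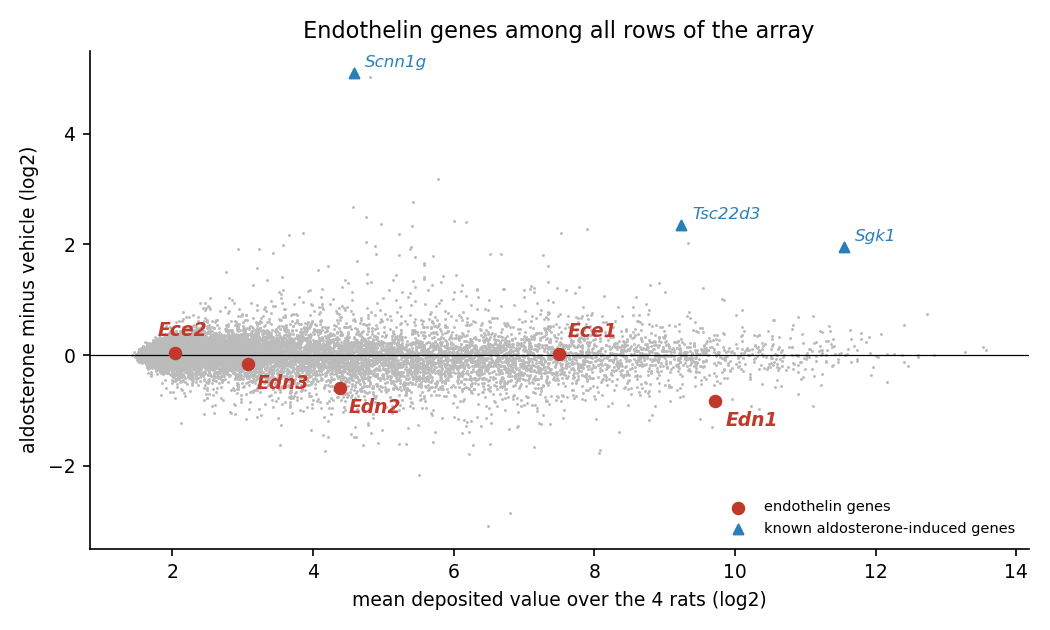
Difference, aldosterone minus vehicle (y axis, log2), against the mean over the 4 rats (x axis, log2) for 19403 rows in grey. Red circles are the endothelin rows and blue triangles Sgk1, Tsc22d3 and Scnn1g. Edn1 and Edn2 lie at the lower side of the cloud at -0.82 and -0.59, and the 3 induced genes at 1.95 to 5.09.

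Endothelin-1 is best known from vascular endothelium, so markers of other cell types were read in the same arrays. The labelled cell type was borne out by 10 measured surface colonocyte markers, whose median was 11.17 and 11.20 in the aldosterone rats, against 11.09 and 11.06 in the vehicle rats. None of the 10 had a mean below 3, although the exchanger gene Slc9a3 ranged from 2.48 to 8.39 among rats. In 5 of the 10 the groups did not overlap with higher values under aldosterone, and in 0 with lower values. Among all rows averaging 4 or more these shares were 13.4% and 18.7%. On the linear scale the 10 summed to 25480 and 25300 under aldosterone and 21010 and 23020 under vehicle, without overlap. Slc26a3, an anion exchanger gene, was 0.55 higher (unadjusted p = 0.0254, adjusted p = 0.948 in limma). Of 10 listed endothelial markers 7 were measured, and Pecam1, Cdh5 and Kdr were not analysed here. Of the 7 measured endothelial markers, 5 had a mean below 3 and none reached 4. The endothelial genes Tek, Tie1, Vwf, Emcn and Robo4 lay between 1.77 and 2.81 in all 4 arrays, and their groups overlapped. Cldn5 and Esam were higher, and their groups did not overlap. Cldn5 had 3.16 and 3.54 under aldosterone and 2.74 and 3.09 under vehicle. Esam had 3.73 and 3.93 under aldosterone and 3.63 and 3.71 under vehicle. Neither had an unadjusted p under 0.05 in limma with either prior. Summed on the linear scale, the 7 endothelial markers gave 45.0 and 52.5 under aldosterone and 40.9 and 48.1 under vehicle, so these sums overlapped. The part of the endothelial markers in the Edn1 result was not tested. Over endothelium, smooth muscle, fibroblasts and enteric glia and neurons together, 22 of 27 measured markers had a mean below 3, and 1, the fibroblast gene Fbln1, reached 4. Smooth muscle, where ETA acts, had 7 of 7 measured markers below 3, from 9 listed. All 5 enteroendocrine markers were below 3, as were 5 of 6 crypt and cycling markers.

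Goblet, leukocyte and mast cell markers were less even among rats. The goblet list (3 of 7 listed genes measured, Muc2 not among them) summed to 985 and 3158 in the aldosterone rats, against 2505 and 1972 in the vehicle rats. Its member Tff3, a trefoil peptide gene, lay at 9.44 in aldosterone replicate 1 and 11.30 in replicate 2, against 11.12 and 10.74 in the vehicle rats. The groups overlapped for Tff3 and for Agr2. They did not for Zg16, with log2 values of 6.39 and 8.06 under aldosterone and 5.14 and 4.45 under vehicle. Its difference of 2.43 did not pass the adjusted threshold (adjusted p = 0.891, and 0.134 with the intensity trend, in limma). The mast cell list summed to 90.1 and 23.6 in the aldosterone rats, against 55.7 and 25.5 in the vehicle rats, carried by the protease gene Mcpt1. Of 7 leukocyte markers 4 were below 3, and Cd14, which epithelial cells also express, carried the sum of 2289 and 2641 in the aldosterone rats, against 1904 and 2341 in the vehicle rats. The part of these lists, and of the surface colonocyte and crypt lists, in the Edn1 result was not tested either. In RNA from whole cell preparations, fewer cells of a type and less RNA per cell cannot be told apart.

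**Figure D4:**
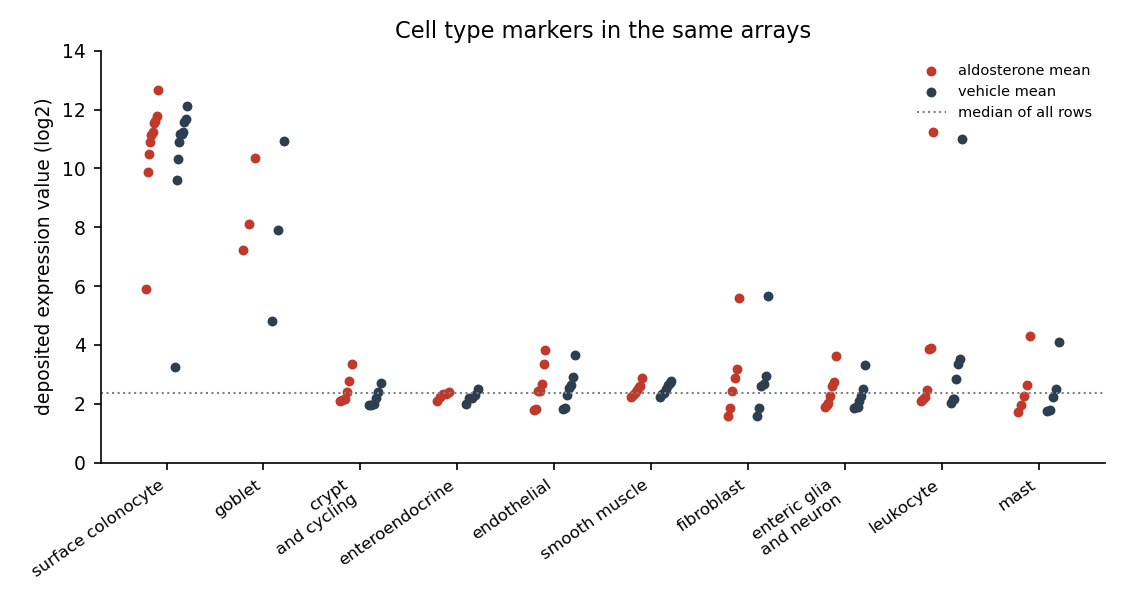
Group mean of each measured marker gene (y axis, log2) by cell type (x axis), aldosterone in red left of vehicle in dark blue; the dotted line is the median of all row means, 2.35. Most surface colonocyte markers lie above 9, whereas the endothelial and smooth muscle markers lie below 4.

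The 4 lists of genes around the pathway gave few differences. Among 11 measured genes of peptide maturation and breakdown, 10 differences were above 0 and 1 below, where 7732 of 13215 named genes were above 0. The list median was 0.055, against 0.026 over the named genes, and 4 of the 11 had a mean of 4 or more. None of the 11 had an unadjusted p under 0.05 in limma with the constant prior. Of all rows 4.53% did, a share too small to show in a list of this length. Furin, the protease of the first cut, was well expressed and even, at 8.30 and 8.28 in the aldosterone rats, against 8.32 and 8.22 in the vehicle rats, with an interval of -0.26 to 0.30. Mme, which encodes neprilysin, a membrane peptidase that degrades endothelins, lay at 4.53 and 3.52 in aldosterone rats, against 2.11 and 3.21 in the vehicle rats. Its groups did not overlap, and the difference was 1.36 with an interval of -0.093 to 2.82 (unadjusted p = 0.0603, adjusted p = 1.00 in limma). With the intensity trend the unadjusted p of Mme was 0.0042 and the adjusted p 0.508 in limma. Pam, an enzyme of peptide amidation, lay at 8.22 and 8.30 in aldosterone rats, against 8.20 and 7.97 in the vehicle rats. Ecel1, a relative of the converting enzymes, lay at the floor, as did Mmel1, Phex, Kel, Pcsk5 and Pcsk6, with means from 1.93 to 2.39.

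Of 24 measured genes of receptor G proteins and calcium signalling, 12 differences were above 0 and 12 below (median -0.0099). At an unadjusted p under 0.05 in limma, 1 was higher and 1 lower, where 2.19% and 2.34% of all rows were, and none passed the adjusted threshold. With the intensity trend 1 was again higher and 1 lower (2.56% and 2.11% of all rows), but the lower gene was Itpr3 in place of Gna11. With the constant prior the lower one was Gna11, a Gq-class alpha subunit that couples endothelin receptors to phospholipase C, at 8.89 and 8.68 in the aldosterone rats, against 9.57 and 9.11 in the vehicle rats. Its difference was -0.55 (interval -1.10 to -0.0013, unadjusted p = 0.0497, adjusted p = 1.00 in limma), and with the intensity trend the interval was -1.13 to 0.032 (unadjusted p = 0.0621 in limma). Its close relative Gnaq lay at 7.02 and 6.70 in aldosterone rats, against 7.54 and 6.91 in the vehicle rats, and the groups overlapped. Itpr3, a calcium release channel opened by the product of phospholipase C, lay at 6.98 and 6.81 in aldosterone rats, against 8.19 and 7.26 in the vehicle rats (difference -0.83, interval -1.77 to 0.10, and -1.59 to -0.074 with the intensity trend). The higher one was Gnai1, an inhibitory alpha subunit, at 3.46 and 3.29 in the aldosterone rats, against 2.42 and 2.65 in the vehicle rats (difference 0.84, unadjusted p = 0.00333, adjusted p = 0.711 in limma). Gna13, another alpha subunit gene, lay at 9.19 and 9.08 in aldosterone rats, against 8.95 and 8.66 in the vehicle rats. Plcb1, a phospholipase C gene, lay at the floor in all 4 rats, at 2.10 and 2.14 in aldosterone rats, against 1.92 and 2.07 in the vehicle rats.

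The nitric oxide arm, which carries the renal effect of endothelin-1, was mostly at the array floor. Of 9 measured genes, 2 had a mean of 4 or more, and none had an unadjusted p under 0.05 (4.53% of all rows). The list median was 0.037, and its sign changed with the rats included, at -0.041 without vehicle replicate 1, 0.115 without vehicle replicate 2 and -0.017 without aldosterone replicate 2. Nos2, the inducible synthase gene, lay at 2.16 and 2.24 in aldosterone rats, against 2.07 and 2.32 in the vehicle rats. Nos3, the endothelial synthase gene, lay at 2.38 and 2.45 in aldosterone rats, against 2.20 and 2.49 in the vehicle rats. Nos1 was not analysed here. The genes above the floor were Pde5a, a phosphodiesterase that breaks down cyclic GMP, at 8.67 and 8.35 in aldosterone rats, against 8.41 and 8.27 in the vehicle rats, and Akt1, a kinase that activates Nos3, at 6.54 and 6.62 in aldosterone rats, against 7.14 and 6.54 in the vehicle rats. Cav1, a caveolar inhibitor of Nos3, lay below 2.2 in all rats, with a difference of -0.21.

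Regulators of Edn1 transcription had differences in both directions. Of 21 measured genes, 5 had an unadjusted p under 0.05 with the constant prior, 1 higher and 4 lower, where 4.53% of all rows did. With the intensity trend 1 did, higher (4.67% of all rows), and none passed the adjusted threshold in either fit. The median difference was -0.0026. Per1, a clock gene that in mouse collecting duct acts on Edn1, lay at 5.95 and 6.23 in aldosterone rats, against 4.53 and 4.95 in the vehicle rats (difference 1.35, unadjusted p = 0.00233, adjusted p = 0.711 in limma). Per1 was higher and Edn1 lower in both aldosterone rats than in either vehicle rat. Neither passed the adjusted threshold with either prior, and a link between them was not tested. Klf2, a shear stress factor that represses Edn1 in endothelium, lay at 5.18 and 5.31 in aldosterone rats, against 5.76 and 5.90 in the vehicle rats. Foxo1, a forkhead factor, lay at 6.70 and 6.65 in aldosterone rats, against 7.06 and 7.05 in the vehicle rats. Pparg, a nuclear receptor abundant in colonocytes, lay at 4.94 and 5.14 in aldosterone rats, against 5.41 and 5.87 in the vehicle rats. In each of these 3 genes both aldosterone rats lay below both vehicle rats. Over the 21 genes, 5 did so and 3 lay the other way without overlap. Of the 21, 20 had a mean of 4 or more, and among all such rows the shares were 18.7% and 13.4%. The adjusted p of Klf2, Foxo1 and Pparg was 0.798, 0.891 and 1.00 in limma.

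**Figure D5:**
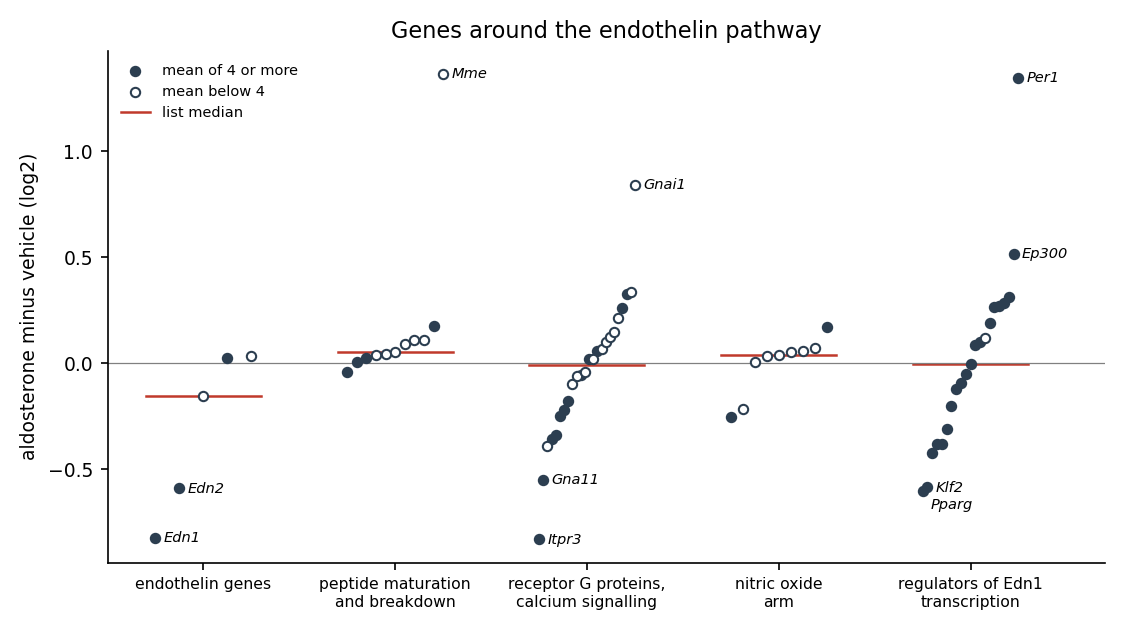
Difference, aldosterone minus vehicle (y axis, log2), of each measured gene in 5 lists (x axis), sorted within a list. Filled points have a mean of 4 or more, open points less, and red lines are list medians, which lie at -0.16 for the endothelin genes and between -0.0099 and 0.055 for the other lists. Genes beyond 0.5 in either direction are named.

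Both corticosteroid receptor genes were expressed. Nr3c2, the mineralocorticoid receptor gene, lay at 9.39 and 9.14 in aldosterone rats, against 8.95 and 9.37 in the vehicle rats. Nr3c1, the glucocorticoid receptor gene and the fourth of the lower ones, lay at 5.30 and 5.43 in aldosterone rats, against 5.69 and 5.66 in the vehicle rats. Of the factors whose motifs lie before Edn1, Gata2 was near the floor at 2.69 and 2.78 in aldosterone rats, against 2.43 and 2.80 in the vehicle rats, and its relative Gata6 stood at 5.09 and 5.43 in aldosterone rats, against 5.36 and 5.36 in the vehicle rats. The AP-1 genes Jun and Fos were high in all rats. Jun lay at 11.62 and 11.56 in aldosterone rats, against 11.91 and 11.51 in the vehicle rats. Fos lay at 9.75 and 10.24 in aldosterone rats, against 10.50 and 10.34 in the vehicle rats, with non-overlapping groups, a difference of -0.43 and an interval of -0.98 to 0.13. Hif1a, the hypoxia-inducible factor gene, lay at 8.35 and 8.13 in aldosterone rats, against 7.71 and 8.14 in the vehicle rats, and the groups overlapped.

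The genes whose values ran most like those of Edn1 over the 4 arrays were Tkt, Mertk, Ptk6, Cep95 and Areg. Likeness was the root mean square distance between log2 values centred on each gene's own mean, over 4131 genes with a mean of 4 or more. It was 0.047 for Tkt, which encodes the pentose phosphate enzyme transketolase, 0.070 for Mertk, a receptor tyrosine kinase gene, and 0.073 for Ptk6, a tyrosine kinase gene of differentiated epithelium. It was 0.078 for Cep95, a centrosomal protein gene, and 0.082 for Areg, which encodes the EGF receptor ligand amphiregulin, where the median gene was 0.54 away. Areg lay at 8.78 and 7.84 in aldosterone rats, against 8.99 and 8.96 in the vehicle rats, with the lowest value in aldosterone replicate 2, as for Edn1. A closeness over 4 arrays from the same animals, picked from 4131 genes, is a description of these arrays only.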

How the data were processed

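Expression was measured on Affymetrix rat exon arrays, 1 per rat. The values used are on a log2 scale, as deposited. Per the submitters' processing notes, Affymetrix Expression Console, Partek and RMA were used, with no version or order given; the log2 scale was read from their range. RMA makes arrays alike in distribution, which can hide a shift common to most genes. The sources used here give neither genome build nor detection calls. Rows were named through the platform annotation, and for a listed gene with several rows the one with the highest mean was used. Aldosterone was compared with vehicle over all rows with limma 3.58.1 in R 4.3.3 (lmFit, eBayes, constant prior, two-sided, treatment as the only term), with Benjamini-Hochberg adjustment over 19403 rows and 95% intervals. The fits were tested on simulated data. Tables and plots used Python 3.11.15, pandas 2.3.3 and matplotlib 3.10.9. With 4 arrays, their number limits the precision. The endothelin genes and the lists were chosen with earlier results of these data known. Named are all endothelin genes, genes central by role, up to 4 of each list by smallest unadjusted p, and the 5 genes most like Edn1; genes named outside this rule (Slc9a3, Fbln1, Tff3, Mcpt1, Cd14, Gata6, the floor-level peptidases and further markers) were chosen after their values were seen. Alternatives were quantile normalization, median centring, filters at the 25th percentile of row means (1.89) and at a mean of 3, an intensity trend, a robust prior, a replicate block, each array left out and, for lists, averaging the rows of a gene. The intensity trend with an array left out was added after seeing the data.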

Additional observations from a re-analysis of the deposited data

How the results depend on the processing

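Filters, the intensity trend, the robust prior and the replicate block leave a difference as it is. Where groups do not overlap, leaving out 1 rat cannot change its sign. For Edn1 and Edn2 only quantile normalization and median centring could thus change the sign. They gave -0.82 and -0.88 for Edn1, and -0.57 and -0.65 for Edn2. The differences of Edn1 and Edn2 were below 0 in each of 15 alternatives, from -1.27 to -0.38 for Edn1 and from -0.79 to -0.39 for Edn2. Their adjusted p in limma ran from 0.013 to 1.00 for Edn1 and from 0.786 to 1.00 for Edn2. Edn1 passed the threshold once, with the intensity trend and without aldosterone replicate 1 (-1.27, adjusted p = 0.013 in limma), where the spread came from the vehicle rats alone and 137 rows passed. With 1 rat left out, the lone rat of a group is assumed to vary like the other group, and Edn3 ran from -0.59 to 0.28 (0.15 without vehicle replicate 2), Ece1 from -0.38 to 0.43 (-0.023 without aldosterone replicate 1) and Ece2 from -0.029 to 0.098 (-0.0065 without aldosterone replicate 2), under either prior. Ece1 was -0.033 and Ece2 -0.023 with centred arrays, and Ece2 was -0.0048 with quantile normalization. Rows below a mean of 3 left out gave 1 row past the adjusted threshold, 377 at an unadjusted p under 0.05 and 2122 with non-overlapping groups (879 and 5396 over all rows), by construction from fewer rows; Ece2 was not among them. The intensity trend gave 21 past the threshold. List medians with centred arrays were -0.0033 for peptide maturation, -0.068 for G proteins, -0.021 for the nitric oxide arm and -0.060 for regulators of Edn1, and with the filter at a mean of 3 they were -0.12 for G proteins and -0.043 for the nitric oxide arm. With 1 rat left out they ran from 0.041 to 0.11 for peptide maturation, from -0.165 to 0.066 for regulators, from -0.064 to 0.039 for G proteins and from -0.041 to 0.115 for the nitric oxide arm; the cause was not tested. Replicate numbers are shared between the groups, but nothing says that they pair rats, and the correlation of same-numbered deviations was 0.148. With the replicate block the difference of Edn1 stayed at -0.82 (unadjusted p = 0.0449, adjusted p = 0.737 in limma) and that of Edn2 at -0.59 (unadjusted p = 0.0832, adjusted p = 0.799 in limma). The row with an unadjusted p under 0.05 was then Edn1 in place of Edn2, and no endothelin row passed the adjusted threshold. Non-overlap was not counted with a rat left out. Rows near the floor, Ece2 and Edn3 among them, have little signal over background.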
